A study of Mus musculus with 18 samples.

Results

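Liver RNA levels of 8 genes of ketone body metabolism and the fasting response were compared across 18 mice: Acat1, Bdh1, Slc16a1, Vnn1, Pdk4, Fgf21, Angptl4 and Ppargc1a. The genes were chosen by symbol, as ketone body enzymes and genes induced by fasting, with earlier results of these data known, and are 8 of the 25266 genes listed for each mouse. All 8 passed the filter on low values, which kept 11090 genes. The mice were male, on a C57BL/6 background, and all carried floxed copies of Ppp6r3, the gene of SAPS3, a regulatory subunit of protein phosphatase 6. FF mice carried no Cre. LKO mice carried in addition Cre under the albumin promoter, a driver for hepatocytes, so other liver cells keep the gene. From 8 weeks of age they ate for 16 weeks a control diet with 10 kcal% fat (CD) or a high fat diet with 32.5 kcal% fat (HFD), with free access to food and water. The groups were FF CD and LKO CD with 4 mice each and FF HFD and LKO HFD with 5 mice each. The study's methods describe a short fast before the terminal draw of blood for serum, and whether this applied to the livers used for RNA is not given in the sources used here.

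During fasting the liver oxidises fatty acids and turns the acetyl-CoA that results into acetoacetate and β-hydroxybutyrate, which other organs burn. The nuclear receptor PPARα, activated by fatty acids, drives many of the genes needed, and also responds to fat from the diet, while glucagon, cAMP and FoxO factors drive gluconeogenic genes. Several of the genes described here (Fgf21, Pdk4, Angptl4, Vnn1) are textbook PPARα targets, Ppargc1a is a textbook target of cAMP, and Fgf21 can also be induced by ATF4 in the integrated stress response.

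RefSeq promoter sequence (GRCm38.p6, 250 bases before to 50 after the gene start) was matched for 5 of the genes: Bdh1 with a pair of starts, Fgf21, Pdk4, Ppargc1a and Slc16a1. Motifs were searched only in the 250 bases before the start, not in the 50 after it. Parts of the sequences of Fgf21 and Ppargc1a are shown because these were the genes with a match there. Both stretches lie upstream of the start and are printed on the gene's strand, which is the minus strand. Capitals mark matches to the motifs named after them.
Fgf21, chr7:45615491-45615640: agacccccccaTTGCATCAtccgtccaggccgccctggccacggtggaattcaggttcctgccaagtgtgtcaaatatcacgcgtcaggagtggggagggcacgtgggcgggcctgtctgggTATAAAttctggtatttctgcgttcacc
Ppargc1a, chr5:51567728-51567807: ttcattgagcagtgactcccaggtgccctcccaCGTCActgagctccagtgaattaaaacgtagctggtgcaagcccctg

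The capitals in Fgf21 are TTGCATCA, the reverse complement of TGATGCAA (the C/EBP-ATF motif), beginning 139 bases before the start, and TATAAA, beginning 28 bases before it. On either strand, TGATGCAA is found in 0.791% of 32851 promoters of this length, and TATAAA in 12.4%. The capitals in Ppargc1a are CGTCA, the reverse complement of TGACG (the core of the cAMP response element), beginning 49 bases before the start. TGACG is found on either strand in 17.8% of promoters, and a further match in Fgf21, 68 bases before the start, is left in lower case. None of the 6 windows held AGGTCA (nuclear receptor core, in 14.0% of promoters), AGGTCANAGGTCA (in 0.0335%), GTAAACA (FOXO, in 3.17%) or TGACGTCA (in 1.55%). These are matches of letters in a window, and no binding was measured.

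Sequencing depth was between 23.4 and 37.0 M reads per mouse, a median of 25.7 M. Values are RPKM, the reads of a gene scaled by its length and by the depth of the library, so levels can be set side by side between genes. Ppp6r3, the targeted gene (chr19:3454928-3575749), was at 8.38 to 11 RPKM in FF CD and 7.55 to 8.82 in FF HFD mice, against 3.88 to 4.08 in LKO CD and 4.22 to 4.87 in LKO HFD mice. No LKO mouse overlapped an FF mouse of the same diet. The 6 hepatocyte markers summed to between 33798 and 50797 RPKM over the mice, most of it Alb, with overlap between the diets in both genotypes. Among them Apoa1 and Cps1 fell with HFD in FF mice (5113 ± 400 to 3105 ± 323 and 495 ± 93.7 to 212 ± 51.5 RPKM, SD, n = 4 and 5), and Apoa1 was higher in LKO HFD than in FF HFD mice, a call lost without FF HFD 2 or LKO HFD 2. Summed markers of endothelial and Kupffer cells reached higher on HFD, with overlap between the diets except for endothelial markers in FF mice. The 5 endothelial markers summed to 12.2 to 25.2 RPKM in FF CD, 9.52 to 26.6 in LKO CD, 30.1 to 48.5 in FF HFD and 24.3 to 33.6 in LKO HFD mice. The 6 Kupffer cell markers summed to 49.9 to 69.8, 42.9 to 68.0, 58.9 to 118 and 60.9 to 115 RPKM in the same order. Single endothelial markers were called higher with HFD for 3 of 5 in FF and 0 in LKO mice, Kupffer cell markers for 2 of 6 and 1. Of all tested genes, 5.11% were called higher in FF mice and 1.27% called in either direction in LKO mice. Most of these marker calls were lost in some fits without a mouse. In both genotypes all 11 markers had a log2 difference above 0 with HFD. None of these 11 markers was at 0 throughout a group, and their part in the diet differences below was not tested. Adipocyte markers, of a tissue that also expresses Angptl4 and Pdk4, summed to at most 0.270 RPKM over 5 genes in FF CD, 0.539 in LKO CD, 2.24 in FF HFD and 2.45 in LKO HFD mice. Adipoq, Plin1 and Lep were at 0 in every CD mouse. Summed markers of stellate cells, of cholangiocytes and of erythroid and immune cells overlapped between the diets in both genotypes, and those of pancreas were at most 0.542 RPKM. Within the 6 stellate markers, whose sum is mostly Dcn, the collagen genes Col1a1 and Col3a1 rose with HFD in FF mice, were lower in LKO HFD than in FF HFD mice and had a called interaction, of the same sign as those of Vnn1, Pdk4 and Acat1. Col1a1 was at 1.05 ± 0.396 RPKM in FF CD, 1.73 ± 1.02 in LKO CD, 3.73 ± 1.64 in FF HFD and 1.08 ± 0.557 in LKO HFD mice, and Col3a1 at 3.59 ± 0.801, 5.43 ± 2.43, 9.88 ± 3.29 and 3.66 ± 1.58. Their interactions were -1.51 (adjusted p = 0.0364, limma) and -1.66 (adjusted p = 0.0263, limma), lost in 13 and 5 of the 18 fits without a mouse, and the call of Col1a1 between the genotypes on HFD was lost without FF HFD 2. The part of these hepatocyte and stellate markers in the results was not tested either. In bulk tissue, fewer cells of a type and less RNA per cell cannot be told apart.

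Averaged over the 18 mice, Acat1 (99.8 RPKM) and Bdh1 (64.2) were the most abundant of the 8, above 95.4% and 93.2% of tested genes. Vnn1 (37.8), Angptl4 (35.7) and Slc16a1 (9.77) followed. Fgf21 (5.43), Pdk4 (2.99) and Ppargc1a (1.36) were low. The reads behind a value ranged from 30 to 483 for Fgf21, from 40 to 747 for Pdk4, from 114 to 355 for Ppargc1a and from 5081 to 14323 for Acat1. The fewest for Fgf21 and Pdk4 were in FF CD mice. For these low genes the log2(RPKM + 1) scale on which differences were tested understates the change, so the ratio of mean RPKM is also given.

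HFD in FF mice raised 5 of the 8 genes: Vnn1, Pdk4, Fgf21, Angptl4 and Acat1. A gene was called when its fold change exceeded 1.5 and its adjusted p was under 0.05 (limma, Benjamini-Hochberg over all tested genes). By that rule 6.60% of all tested genes were called in this comparison, 5.11% of them as higher. In 6 of the 8, Bdh1 included, every FF HFD mouse was above every FF CD mouse, which held for 14.0% of all tested genes. In LKO mice HFD called 0 of the 8 (background 1.27%), although 3 had an unadjusted p under 0.05 and 1 was called by limma voom on estimated reads. LKO CD mice had 7 of the 8 above FF CD mice in the mean, with 0 called (background 0.225%, 5 with an unadjusted p under 0.05, and 0 by voom). LKO HFD mice had 6 of the 8 below FF HFD mice, again with 0 called (background 2.07%, 3 with an unadjusted p under 0.05, and 0 by voom). The comparisons share mice: each group enters a diet and a genotype comparison. The test of the difference between the diet effects, the interaction, called 3 of the 8 as smaller in LKO mice (Vnn1, Pdk4 and Acat1), against 2.44% of all tested genes in either direction and 1.5% in this one.

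**Figure D1:**
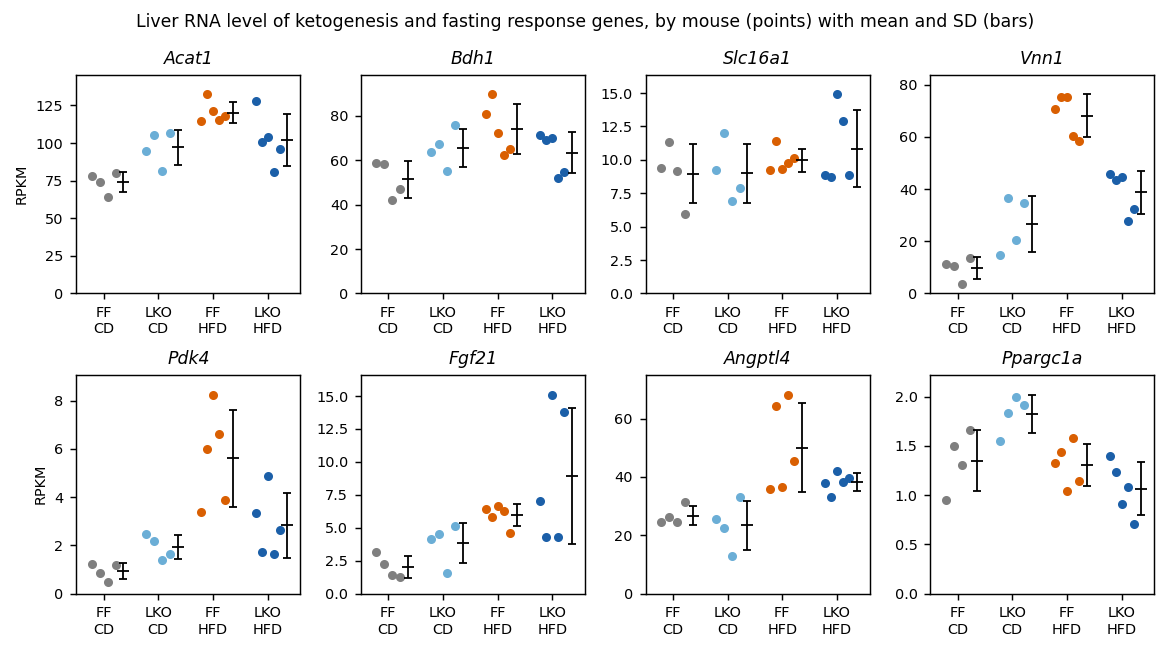
RPKM (vertical axis, from 0) of the 8 genes in each of the 18 mice (points), by group, with the mean and SD of the group (bars). For Vnn1 the 5 FF HFD mice sit between 58.3 and 75.5 RPKM, above all other mice, and for Fgf21 a pair of LKO HFD mice at 15.1 and 13.8 RPKM stand above the rest.

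Of the ketone body enzymes, Acat1 (chr9:53580522-53610382, minus strand) encodes the mitochondrial thiolase that joins acetyl-CoA units into acetoacetyl-CoA. Its RPKM was 78.0, 74.1, 64.4 and 79.9 in FF CD and 115, 132, 121, 115 and 118 in FF HFD mice. In LKO mice it was 94.8, 105, 81.7 and 107 on CD and 128, 101, 104, 80.5 and 96.1 on HFD. FF CD mice were thus below all others and FF HFD mice had the highest mean, while LKO mice of both diets overlapped each other, and LKO HFD mouse 1 lay within the range of FF HFD mice. Acat1 rose 1.62-fold with HFD in FF mice (log2 difference 0.69 ± 0.12 SE, adjusted p = 0.00053, limma). In LKO mice the difference was 0.06, with a 95% interval from -0.18 to 0.31. The diet effect was smaller in LKO than in FF mice by a log2 difference of -0.63 (95% interval -0.98 to -0.29, adjusted p = 0.0432, limma), and this call was lost when any of 14 of the 18 mice was left out, all but FF CD 4, LKO CD 3, FF HFD 1 and LKO HFD 1 (adjusted p 0.0104 to 0.114 over all such fits).

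Bdh1 (chr16:31422280-31458901, plus strand) encodes the mitochondrial dehydrogenase that reduces acetoacetate to β-hydroxybutyrate. RPKM was 58.6, 58.3, 41.9 and 47.3 in FF CD and 81.0, 89.7, 72.2, 62.3 and 65.1 in FF HFD mice. LKO mice had 63.7, 67.6, 55.2 and 75.8 on CD and 71.5, 68.9, 69.9, 52.1 and 54.5 on HFD. Every FF HFD mouse was above every FF CD mouse, and the groups of LKO mice overlapped. The increase in FF mice was 1.44-fold (log2 difference 0.52 ± 0.14 SE, adjusted p = 0.0132, limma), past the p but short of the fold limit. It was called when all mice were brought to 1 common sum of RPKM (0.60). In LKO mice the difference was -0.05, with an interval from -0.34 to 0.24, and that between the diet effects was -0.57 (adjusted p = 0.139, limma), not called. Whole reads could be recovered from the RPKM of the other 7 genes but not from those of Bdh1.

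Slc16a1 (chr3:104638668-104658462, plus strand) encodes MCT1, a proton-coupled carrier of lactate, pyruvate and ketone bodies. Its RPKM was 9.40, 11.3, 9.19 and 5.95 in FF CD, 9.24, 12.0, 6.90 and 7.86 in LKO CD, 9.27, 11.4, 9.30, 9.74 and 10.1 in FF HFD and 8.84, 8.69, 14.9, 12.9 and 8.83 in LKO HFD mice. All groups overlapped, and the highest values were those of a pair of LKO HFD mice. No comparison called it: the log2 difference was 0.16 (interval -0.21 to 0.54) for HFD in FF mice, 0.24 (-0.14 to 0.61) for HFD in LKO mice, 0.01 (-0.38 to 0.40) between genotypes on CD and 0.08 (-0.27 to 0.43) on HFD. Groups accounted for 14.4% of its variation on the log2 scale, the least of the 8 genes and under the median of 32.0% over all tested genes.

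Vnn1 (chr10:23894688-23905343, plus strand) encodes vanin-1, a membrane-bound pantetheinase that releases pantothenate, the precursor of coenzyme A, and cysteamine. RPKM was 11.3, 10.3, 3.57 and 13.7 in FF CD and 70.9, 75.3, 75.5, 60.4 and 58.3 in FF HFD mice. In LKO mice it was 14.7, 36.7, 20.4 and 34.6 on CD and 45.8, 43.5, 44.8, 27.7 and 32.4 on HFD. The order was FF CD, LKO CD, LKO HFD, FF HFD, and of these neighbours only the LKO groups overlapped. Vnn1 rose 7.01-fold with HFD in FF mice (log2 difference 2.80 ± 0.29 SE, adjusted p = 7.19e-06, limma), the largest diet difference of the 8. In LKO mice the ratio was 1.46 (log2 difference 0.59, interval -0.02 to 1.21, adjusted p = 0.24, limma). On CD the ratio of LKO to FF was 2.74 (log2 difference 1.40, adjusted p = 0.0772, limma), and it was called with LKO CD mouse 1 left out (adjusted p = 0.0298, limma). On HFD the ratio was 0.570 (log2 difference -0.81, adjusted p = 0.108, limma), called in a fit of only these groups (adjusted p = 0.0163, limma) and with FF CD mouse 3 left out (0.0378). The interaction of -2.21 (interval -3.08 to -1.34, adjusted p = 0.00567, limma) was the largest of the 8 and was called in every alternative, leaving out each mouse included.

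Pdk4 (chr6:5483351-5496309, minus strand) encodes a kinase that inactivates the pyruvate dehydrogenase complex and so spares glucose carbon when fat is burned. Its RPKM was 1.23, 0.844, 0.495 and 1.19 in FF CD and 3.37, 5.99, 8.24, 6.61 and 3.87 in FF HFD mice. LKO mice had 2.49, 2.18, 1.40 and 1.64 on CD and 3.33, 1.71, 4.89, 1.62 and 2.64 on HFD. LKO CD mice were all above FF CD mice, and the range of LKO HFD mice ran from that of LKO CD into that of FF HFD mice. Pdk4 rose with HFD in FF mice, by a ratio of mean RPKM of 5.98 (log2 difference 1.73 ± 0.24 SE, adjusted p = 0.0001, limma). The ratio was 1.48 in LKO mice (log2 difference 0.34, interval -0.16 to 0.84). On HFD, LKO mice had 0.506 times the mean of FF mice (log2 difference -0.80, adjusted p = 0.0511, limma), just outside the call, and the adjusted p was between 0.0230 and 0.129 as single mice were left out. The interaction was -1.39 (interval -2.10 to -0.69, adjusted p = 0.0299, limma), lost when any of 8 mice was left out (adjusted p 0.0113 to 0.0828) and without the filter on low values (0.0809).

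**Figure D2:**
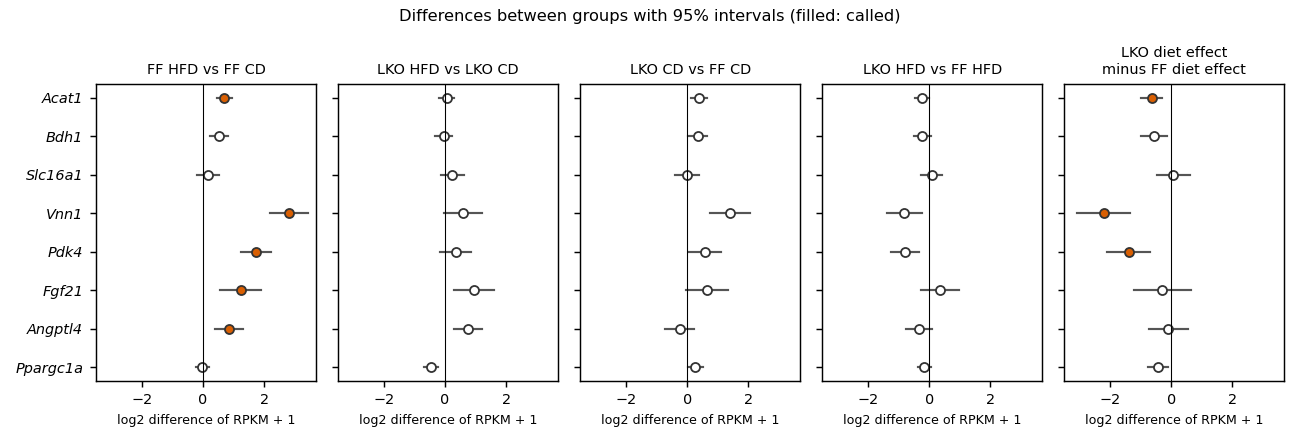
Log2 differences of RPKM + 1 (horizontal axis) of the 8 genes in 4 pairwise comparisons and in the difference between the diet effects, with 95% intervals (lines); filled points were called. Vnn1 has the largest diet effect in FF mice (2.80) and the largest interaction (-2.21), and Slc16a1 lies near 0 in all panels.

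Fgf21 (chr7:45613886-45615490, minus strand) encodes a hormone released by the liver, which acts on fat and brain through FGF receptors and β-Klotho. RPKM was 3.13, 2.28, 1.44 and 1.25 in FF CD and 6.46, 5.84, 6.64, 6.24 and 4.61 in FF HFD mice. In LKO mice it was 4.11, 4.50, 1.61 and 5.12 on CD and 7.06, 4.33, 15.1, 4.34 and 13.8 on HFD. The 5 FF HFD mice lay close together, with an SD of 13.6% of their mean, whereas the LKO HFD mice split into 3 near the FF HFD range and 2 well above it, with an SD of 58.0% of the mean. Fgf21 rose with HFD in FF mice by a ratio of 2.94 (log2 difference 1.24 ± 0.32 SE, adjusted p = 0.0100, limma). The ratio in LKO mice was 2.33 (log2 difference 0.94 ± 0.32 SE, adjusted p = 0.0944, limma), not called. Unlike that of Vnn1 or Pdk4, the diet effect was not shown to differ between the genotypes: the interaction was -0.29, with an interval from -1.23 to 0.65. On HFD the ratio of LKO to FF was 1.5 (log2 difference 0.36, interval -0.27 to 0.98), and on CD it was 1.89 (log2 difference 0.65, interval -0.05 to 1.35).

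Angptl4 (chr17:33773750-33781830, minus strand) encodes a secreted inhibitor of lipoprotein lipase. Its RPKM was 24.6, 26.2, 24.5 and 31.4 in FF CD and 36, 64.2, 36.4, 68.2 and 45.6 in FF HFD mice. LKO mice had 25.6, 22.3, 12.9 and 33.2 on CD and 38.1, 33.3, 42.1, 38.2 and 39.6 on HFD. In both genotypes every HFD mouse was above every CD mouse, by a narrow margin in LKO mice. Angptl4 rose 1.88-fold in FF mice (log2 difference 0.84 ± 0.22 SE, adjusted p = 0.0107, limma). In LKO mice the ratio was 1.63 (log2 difference 0.75 ± 0.22 SE, adjusted p = 0.0598, limma), not called, and called after that rescaling and with LKO CD mouse 4 left out (adjusted p = 0.0413 and 0.0440). The interaction was -0.09, with an interval from -0.74 to 0.56. Of the 5 genes raised in FF mice, Angptl4 and Fgf21 were the pair without a called interaction, and the intervals of both hold a difference of more than 0.5 either way.

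Ppargc1a (chr5:51454250-51567726, minus strand) encodes PGC-1α, a coactivator of mitochondrial and gluconeogenic genes. RPKM was 0.945, 1.5, 1.3 and 1.66 in FF CD and 1.33, 1.44, 1.04, 1.58 and 1.14 in FF HFD mice, which overlapped throughout. In LKO mice it was 1.55, 1.83, 2.0 and 1.92 on CD and 1.40, 1.24, 0.907, 1.08 and 0.707 on HFD, with every HFD mouse below every CD mouse. It was the 1 gene of the 8 whose LKO HFD mice were all lower than their CD mice: with Angptl4, 2 of the 8 did not overlap between the diets in LKO mice, against 9.04% of tested genes. The log2 difference was -0.46 ± 0.11 SE (adjusted p = 0.0278, limma), past the p but short of the fold limit on this scale, and the ratio of mean RPKM was 0.584. With a pseudocount of 0.1 (log2 difference -0.75, adjusted p = 0.0322, limma) and by voom (-0.82, adjusted p = 0.0247, limma) it was called. In FF mice the difference was -0.02 (interval -0.25 to 0.20), with a sign that turned under rescaling (0.02), and that between the diet effects was -0.44 (adjusted p = 0.136, limma), not called.

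Between genotypes, the 3 genes without overlap on CD were Acat1, Pdk4 and Vnn1, all higher in LKO mice, against 5.07% of tested genes without overlap. Their ratios of mean RPKM were 1.31, 2.05 and 2.74. On HFD only Vnn1 did not overlap, lower in LKO mice, against 4.67% of tested genes. The median log2 difference of the 8 genes was 0.77 for HFD in FF mice and 0.29 for HFD in LKO mice, with 0.07 over all tested genes in both. It was 0.36 for LKO against FF on CD (0.03 over all genes), -0.24 on HFD (0.03) and -0.50 for the interaction (-0.01).

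The pathway around these genes was described with lists of related genes, chosen with earlier results of these data known. Of all tested genes, 6.60% were called for HFD in FF mice and 1.27% for HFD in LKO mice. Between the genotypes 0.225% were called on CD and 2.07% on HFD, and 2.44% by the interaction. The counts of this and the following lists stand beside these shares. Of 24 PPARα targets, 18 rose with HFD in FF mice and none fell, 1 rose in LKO mice (Slc22a5, the carnitine transporter, 7.06 ± 2.11 SD to 11.9 ± 3.07 RPKM, n = 4 and 5), and 10 had a smaller diet effect in LKO mice by the interaction. The call of Slc22a5 was lost without LKO CD 1, 2 or 3, FF HFD 2, or LKO HFD 3 or 4 (adjusted p 0.0343 to 0.143). It was also lost without the filter on low values and in a fit of only these groups. The median log2 difference of the 24 targets with HFD was 0.97 in FF and 0.17 in LKO mice. On CD, 2 of the 24 were higher in LKO mice (5 without LKO CD 3), and on HFD 4 were lower (2 without FF HFD 2). The log2 difference of LKO against FF mice on CD was above 0 for all 24, with a median of 0.39 (0.03 over all tested genes). Groups did not overlap for 12 of the 24 on CD, against 5.07% of tested genes, and 16 had an unadjusted p under 0.05 (limma). On HFD the median was -0.29, with 2 of the 24 above 0 and 9 at an unadjusted p under 0.05 (limma). The largest called changes were those of Cyp4a14, Cidec and Cyp4a10, of which Cyp4a14 and Cyp4a10 are fatty acid ω-hydroxylases. Cyp4a14 was at 5.18 ± 4.66 RPKM (SD, n = 4) in FF CD, 127 ± 69.3 (n = 4) in LKO CD, 266 ± 88.4 (n = 5) in FF HFD and 177 ± 120 (n = 5) in LKO HFD mice. Its log2 difference with HFD was 5.62 in FF (adjusted p = 1.65e-06, limma) and 0.36 in LKO mice, and 4.43 for LKO against FF on CD (adjusted p = 0.000874, limma). Cyp4a10 rose by 3.6 with HFD in FF mice and was higher by 2.85 in LKO than in FF mice on CD. Reads of near-identical genes such as these could be split between copies in the counting, so their single values are uncertain. Cidec, a lipid droplet protein, was at 0.719 ± 0.221 RPKM in FF CD, 2.37 ± 2.18 in LKO CD, 28.1 ± 14.2 in FF HFD and 5.44 ± 3.45 in LKO HFD mice, a log2 difference of -2.18 between the genotypes on HFD (adjusted p = 0.00503, limma).

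**Figure D3:**
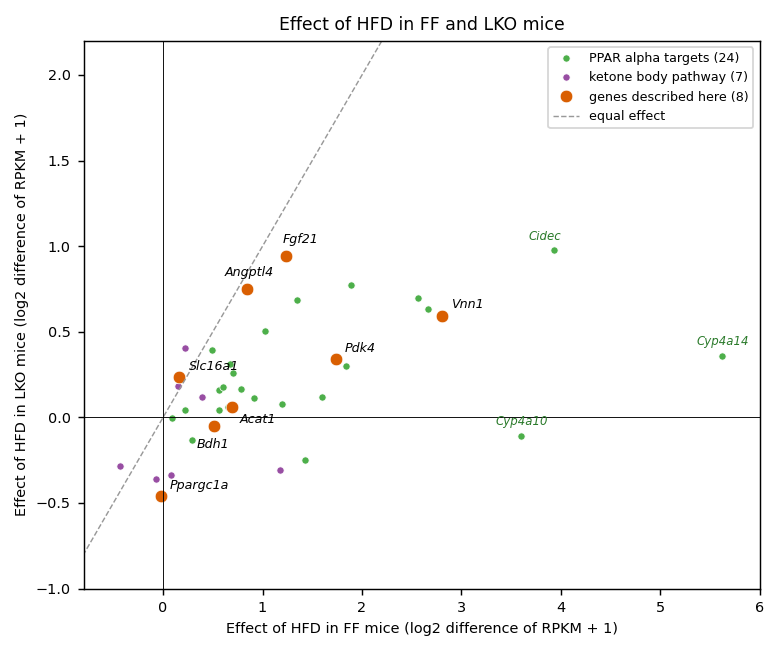
Effect of HFD in FF mice (horizontal axis) and in LKO mice (vertical axis, other scale), as log2 differences of RPKM + 1, for the 8 genes described here, 24 PPARα targets and 7 genes of the ketone body pathway; the dashed line marks equal effects, and the axes share no mice. Vnn1 (2.80 and 0.59), Pdk4 (1.73 and 0.34) and Acat1 (0.69 and 0.06) lie below the line, Angptl4 (0.84 and 0.75) close to it.

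Of 7 other genes of ketone body metabolism and transport, 1 rose with HFD in FF mice. This was Slc16a7, which encodes the monocarboxylate carrier MCT2, with a log2 difference of 1.17 (adjusted p = 7.68e-06, limma). Its level went from 4.37 ± 0.501 RPKM (SD, n = 4) in FF CD to 11.2 ± 2.19 (n = 5) in FF HFD mice, and was 8.86 ± 1.43 (n = 4) in LKO CD and 6.94 ± 0.690 (n = 5) in LKO HFD mice. In LKO mice 0 of the 7 were called for diet, with 2 at an unadjusted p under 0.05 and 0 by voom. Slc16a7 was the member of this list that also differed between genotypes: it was higher in LKO mice on CD (log2 difference 0.87, adjusted p = 0.00559, limma), lower on HFD (-0.61, adjusted p = 0.00623, limma), close to the fold limit and not called without FF HFD 2, FF HFD 3 or LKO HFD 4, and had an interaction of -1.48 (adjusted p = 0.000146, limma). For Slc16a1, the gene of MCT1, the interaction was 0.07 (interval -0.45 to 0.60).

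Among 15 targets of glucagon, cAMP and FoxO, 3 rose (Igfbp1, Insig2 and Ppp1r3g) and 1 fell with HFD in FF mice. In LKO mice 4 fell (G6pc, Lpin1, Ppp1r3g and Sds), the diet comparison in which Ppargc1a was lower. LKO HFD mice had 4 of the 15 lower than FF HFD mice (G6pc, Igfbp1, Insig2 and Ppp1r3g). Without single mice these counts ran from 1 to 5 for HFD in LKO mice (1 or 2 without LKO CD 1 or 3 or LKO HFD 3 or 4) and from 2 to 6 between the genotypes, where the call of Igfbp1 was lost in 15 of 18 such fits (all but those without FF CD 4, FF HFD 1 or LKO HFD 1) and that of Insig2 in 10, those without FF CD 1, LKO CD 1 or 4, FF HFD 2, 3, 4 or 5, or LKO HFD 2, 4 or 5. G6pc kept its call in all of them in both comparisons. The fall in FF mice, of Lpin1, was lost in 7 of 18, those without any of the 4 FF CD mice or FF HFD 1, 3 or 5. The rise of Ppp1r3g in FF mice was lost in 6 of 18, and by voom among other alternatives. The interaction called 2 of the 15, G6pc and Ppp1r3g, both with a negative difference, LKO minus FF. That of G6pc was lost without LKO CD 4 and without the filter on low values, and that of Ppp1r3g was kept in all 18 fits. G6pc, the catalytic subunit of glucose-6-phosphatase, was at 232 ± 28.3 RPKM (SD, n = 4) in FF CD, 138 ± 24.0 (n = 4) in LKO CD, 166 ± 35.0 (n = 5) in FF HFD and 48.8 ± 9.39 (n = 5) in LKO HFD mice. The log2 difference was -1.48 for HFD in LKO mice (adjusted p = 0.000374, limma) and -1.74 for LKO against FF mice on HFD (adjusted p = 3.06e-06, limma). Ppp1r3g, a glycogen-targeting subunit of protein phosphatase 1, was at 2.50 ± 1.04 RPKM in FF HFD and 0.472 ± 0.411 in LKO HFD mice, a log2 difference of -1.24 (adjusted p = 0.00457, limma), a call kept whichever mouse was left out. Insig2, a brake on sterol regulatory element-binding proteins, went from 23.9 ± 9.55 in FF CD to 68.6 ± 11.3 RPKM in FF HFD mice (1.55, adjusted p = 0.000479, limma), and was at 37.8 ± 12.4 in LKO HFD mice. On CD 0 of the 15 were called between genotypes, with 2 at an unadjusted p under 0.05 and 0 by voom. Of 16 regulators of the fasting response, such as Ppara, Foxo1 and Hnf4a, 0 were called in any of the 5 comparisons, with between 1 and 4 at an unadjusted p under 0.05 and 0 by voom. Without FF CD 4, 1 was called for HFD in FF mice.

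**Figure D4:**
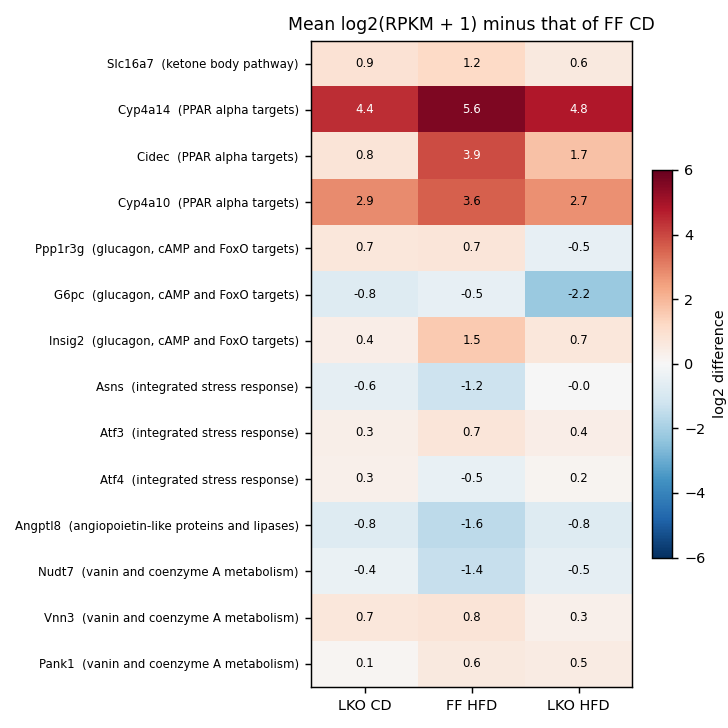
Mean log2(RPKM + 1) of LKO CD, FF HFD and LKO HFD mice minus that of FF CD mice (colour and printed value) for the 14 related genes named by a fixed rule, with their list in brackets. G6pc is lowest in LKO HFD mice, and Cyp4a14, Cyp4a10 and Cidec are highest in FF HFD mice.

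Partners of single genes were listed too. For Fgf21, the integrated stress response gave Asns, asparagine synthetase, and Atf4, its transcription factor, as higher in LKO HFD than in FF HFD mice. Atf4 was at 39.2 ± 7.33 RPKM (SD, n = 4) in FF CD, 48.2 ± 4.83 (n = 4) in LKO CD, 28.0 ± 3.50 (n = 5) in FF HFD and 43.4 ± 5.14 (n = 5) in LKO HFD mice, a log2 difference of 0.62 between genotypes on HFD (adjusted p = 0.00504, limma). Asns was at 0.262 ± 0.159 RPKM in FF HFD and 2.37 ± 1.95 in LKO HFD mice (1.22, adjusted p = 0.0456, limma). This call was lost in 13 of the 18 fits without a mouse (adjusted p 0.0132 to 0.128), all but those without FF CD 3, LKO CD 1, LKO CD 3, LKO HFD 1 or LKO HFD 4. It was also lost by voom, without the filter on low values, in a fit of only these groups and with the replicate block. The call of Atf4 was lost without FF HFD 3, FF HFD 4 or LKO HFD 3, and with all mice brought to 1 common sum of RPKM. With HFD in FF mice Asns fell (-1.22, adjusted p = 0.0198, limma, lost without FF CD 3) and Atf3 rose (0.73, adjusted p = 0.00298, limma), while Fgf21 rose. The other 7 of the 10 genes of the list were called in no comparison of the main fit. With all mice, voom called 3 of the 10 for HFD in FF mice. A pseudocount of 0.1 called 1 for HFD in LKO mice. The interaction called 0 of 10, with 3 at an unadjusted p under 0.05, 1 by voom and 1 without LKO CD 1, LKO HFD 1 or LKO HFD 4. The 5 genes of FGF21 receptors, with the co-receptor Klb, gave 0 calls in each comparison, with 0 or 1 at an unadjusted p under 0.05 and 1 call by voom, for HFD in FF mice, where 1 was also called without FF CD 1 or 2.

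For Pdk4, the other kinases, phosphatases and subunits of pyruvate dehydrogenase gave 6 tested genes of 8 and 0 calls in each comparison, with 1 to 4 at an unadjusted p under 0.05 and 0 by voom. Without LKO HFD 1, 2 were called lower for HFD in LKO mice. For Angptl4, 1 of 6 related proteins and lipases was called: Angptl8, which also acts on lipoprotein lipase and is induced by feeding, fell from 32.7 ± 12.5 RPKM (SD, n = 4) in FF CD to 10.1 ± 3.45 (n = 5) in FF HFD mice (log2 difference -1.58, adjusted p = 0.000659, limma). In LKO mice it was at 17.9 ± 4.67 and 18.6 ± 6.14 RPKM, and the interaction was 1.61 (adjusted p = 0.0288, limma), lost without FF CD 1 or 2, LKO CD 2 or 4, FF HFD 5 or LKO HFD 3 (adjusted p 0.0127 to 0.0773). Without LKO HFD 1, 2 genes of that list had a called lower interaction. For Vnn1, 3 of 8 genes of coenzyme A metabolism were called with HFD in FF mice. Its neighbour in function Vnn3 rose from 24.4 ± 2.77 to 42.0 ± 5.98 RPKM, Pank1, a pantothenate kinase, rose from 31.8 ± 3.84 to 49.1 ± 5.54 (not called without FF CD 3, FF HFD 4 or FF HFD 5), and Nudt7, a peroxisomal coenzyme A hydrolase, fell from 215 ± 30.5 to 84.9 ± 26.2. Vnn3 and Nudt7 also had a called interaction, of -1.12 (adjusted p = 0.00203, limma) and 1.23 (adjusted p = 0.0102, limma). Between the genotypes, Vnn3 was called higher in LKO mice on CD, lost in 8 of the 18 fits without a mouse and without the filter on low values. Nudt7 was called higher in LKO mice on HFD, whichever mouse was left out. Nudt7 was at 163 ± 12.5 RPKM in LKO CD and 148 ± 20.2 in LKO HFD mice.

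Among the 8 genes, groups accounted for 84.7% of the variation of Vnn1 on the log2 scale, 76.6% of that of Pdk4 and 72.8% of that of Acat1. Angptl4 (64.2%), Fgf21 (62.2%), Ppargc1a (56.3%) and Bdh1 (48.4%) followed. The highest mouse was 21.1 times the lowest for Vnn1, 16.7 times for Pdk4 and 12.1 times for Fgf21, against 2.06 times for Acat1 and 2.14 times for Bdh1.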

How the data were processed

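Liver RNA of 18 mice (4 FF CD, 4 LKO CD, 5 FF HFD, 5 LKO HFD) was sequenced. Per the labels, libraries came from Trizol-extracted total RNA, and both a small RNA kit and a standard protocol are named. The authors aligned reads with HISAT2 2.0.4 to mm10, used Partek, and deposited RPKM values per gene, which were used as deposited. The annotation, strandedness and treatment of reads matching several genes are not given in the sources used here.

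Depth was recovered from the steps between low RPKM values (up to 0.2). Whole reads, within 0.05 of a read, were found for 8351 (75.3%) of the tested genes. RPKM steps depend on gene length, so a count model was not the main test. The 11090 genes whose mean RPKM was 0.5 or more were fitted on log2(RPKM + 1), with 1 coefficient per group and a trended prior variance, in limma 3.58.1 (R 4.3.3). Tests were two-sided, and Benjamini-Hochberg adjustment ran over all fitted genes. The paper states the thresholds (fold 1.5, adjusted p 0.05) but no model. The titles number the mice, and no source says that a number marks a shared litter or batch. The script was tested on simulated data. Python 3.11.15, numpy 2.4.6, pandas 2.3.3 and matplotlib 3.10.9 were used.

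The genes and lists were chosen with earlier results of these data known. Named in the text are the 8 genes and, per related list, up to 3 called genes with the largest change. Genes outside that rule (Slc22a5, Lpin1, Sds and Igfbp1, and the markers Apoa1, Cps1, Col1a1 and Col3a1) were named after their values were seen, to account for small counts or markers that moved. Some genes that belong to the ketone body list or the rule are not reported here, and the counts of that list are without them. Gene positions are from GENCODE on GRCm38 (mm10), promoters from RefSeq. The alternatives changed the pseudocount (0.1), the filter (none, or a mean of 1 RPKM), the scaling (a common sum, or quantile normalization), the mice fitted (only the groups compared, or each mouse left out), the model (a replicate block, or voom on estimated reads) and the threshold (adjusted p without a fold limit).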

Additional observations from a re-analysis of the deposited data

Results flagged for a closer look

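The diet effect was called as different between the genotypes for 3 of the 8 genes, against 2.44% of all tested genes. The test was that of the difference itself (limma, adjusted over all tested genes). The difference, LKO minus FF on the log2 scale, was -2.21 for Vnn1 (adjusted p = 0.00567, limma), -1.39 for Pdk4 (adjusted p = 0.0299, limma) and -0.63 for Acat1 (adjusted p = 0.0432, limma). Only the call of Vnn1 held in every alternative. That of Pdk4 was lost in 8 of the 18 fits without a mouse, without the filter on low values and with the replicate block. That of Acat1 was lost in 14 of the 18, in the same alternatives and with quantile normalization. Each diet effect rests on the 9 mice of its genotype, so the FF and LKO effects share no mice. No mouse stood apart from its group by Dixon's criterion in any of the 32 sets of values (8 genes in 4 groups). The criterion weighs the gap between the most extreme mouse and its neighbour. It therefore could not flag a pair of high mice, such as those for Fgf21 in LKO HFD (15.1 and 13.8 RPKM).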

How the results depend on the processing

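Across 1032 values of single genes under the alternatives, 967 kept their direction and their side of the thresholds, 27 lost the call, 16 gained it and 22 changed sign, none of which was called. The count of genes raised by HFD in FF mice stayed between 5 and 6. That for HFD in LKO mice went from 0 to 1 with a pseudocount of 0.1 and voom and by the adjusted p alone (Ppargc1a) and with rescaling (Angptl4), and was 0 to 1 over the fits without a mouse (1 without LKO CD 4). Between genotypes the count was 0 to 1 without single mice on CD (1 without LKO CD 1) and on HFD (1 without FF CD 3, FF HFD 1, LKO HFD 1 or LKO HFD 3), and on HFD also 1 with the filter raised to 1 RPKM, with rescaling, quantile normalization (Pdk4) and only the groups compared (Vnn1). The interaction went from 3 to 1 without the filter on low values (Acat1 and Pdk4 lost), where more genes are tested, and was 1 to 3 without single mice (1 without FF CD 3, LKO CD 1, 2 or 4, FF HFD 2 or 4, or LKO HFD 2 or 4). In each case Vnn1 was the gene left. Rescaling added Bdh1 to it. Beyond the number of genes or mice, the cause was not tested.

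Of 25 pairs of same-numbered mice from different groups, 10 had a correlation of their deviations over 0.1 (range -0.17 to 0.33). Differently numbered mice were not compared in this way, so whether the numbers pair the mice was not tested. With the replicate block the count was 1 for HFD in LKO mice (Angptl4, 0.75) and 1 for the interaction (Vnn1), and the sign of Ppargc1a for HFD in FF mice turned (0.022).

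Signs also turned for Ppargc1a in that comparison under rescaling (0.023) and without single mice (-0.11 to 0.039), and for Slc16a1 between genotypes on CD under quantile normalization (-0.034) and without single mice (-0.15 to 0.12). Without single mice they turned for HFD in LKO mice for Bdh1 (-0.13 to 0.021) and Acat1 (-0.024 to 0.14), for Angptl4 on CD (-0.43 to 0.0078) and in the interaction (-0.34 to 0.094), and for Slc16a1 on HFD (-0.033 to 0.15) and in the interaction (-0.043 to 0.24).

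With 4 or 5 mice a group, the widest 95% interval of a log2 difference, that of the interaction of Fgf21, ran from -1.23 to 0.65, and differences inside them cannot be seen. Values of Pdk4, Fgf21 and Ppargc1a rest on few reads. The titles do not say whether the mice of a group shared a cage or litter.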

Other observations

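The genes whose level followed each of the 8 most closely over the 18 mice are given as a description, with Pearson's r of log2(RPKM + 1) and, after a comma, r after group means were subtracted. The points share the diet and genotype groups, and no p is given. Vnn1 was followed by Gpat3, an acyltransferase of glycerolipid synthesis (0.95, 0.71), and Aldh3a2, a fatty aldehyde dehydrogenase (0.95, 0.82). Acat1 was followed by Chmp2b (0.96, 0.89), Pla2g6 (0.94, 0.79) and Pnldc1 (0.94, 0.79). Bdh1 was followed by Mgll, a monoacylglycerol lipase (0.93, 0.87), Slc25a10, the mitochondrial dicarboxylate carrier (0.92, 0.87), and Pisd (0.91, 0.87). Pdk4 was followed by Synpo (0.94, 0.75), Slc16a5, of the family of Slc16a1 (0.94, 0.72), and 4931406C07Rik (0.92, 0.64). Fgf21 was followed by Litaf (0.93, 0.86), Clpx, a subunit of a mitochondrial protease (0.91, 0.75), and Bsdc1 (0.90, 0.78). Angptl4 was followed by Slc25a34 (0.95, 0.89), Txnip, an arrestin that limits glucose uptake (0.89, 0.66), and Map3k14 (0.89, 0.70). Slc16a1 was followed by Mdm2 (0.87, 0.85), Txnrd1 (0.87, 0.87) and Pard6b (0.86, 0.90). Ppargc1a was followed by a pair of amino acid transporters, Slc38a4 (0.82, 0.71) and Slc7a2 (0.81, 0.67), and by Inmt (0.77, 0.55), the lowest likeness of the 8.

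Among the 8 genes themselves, Acat1 and Vnn1 were the closest pair (0.92, 0.70), then Acat1 and Pdk4 (0.86, 0.52) and Acat1 and Bdh1 (0.86, 0.73). Ppargc1a and Fgf21 had the most negative value (-0.55, -0.55).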
